A study of Mus musculus with 17 samples.

Results

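The genes described here are 46 members of the DNA replication and recombination repair machinery of the mouse, measured in irradiated and non-irradiated lung. They were chosen by name, as genes of S phase, E2F control, nucleotide supply, homologous recombination and the Fanconi pathway. Earlier results of these data were known when they were chosen. All 46 were found among the 45777 genes of the table and passed the filter on low counts that left 22052 genes for testing. The lungs came from male wild-type C57BL/6 mice, obtained at an age of 6 weeks, whose left lung had received a focal dose of 65 Gy or 75 Gy in a single exposure, or from non-irradiated mice of the same kind. RNA was taken 2 weeks after the exposure, which the study treats as the inflammation stage, or 6 weeks after it, treated as the fibrosis stage. In the irradiated groups the RNA came from the lesion of the exposed lung. Each group had 3 libraries except 65 Gy at 6 weeks, which had 2, giving 17 libraries in 6 groups. The paper lists 3 replicates for 65 Gy at 6 weeks, so not all of them are among the libraries used here. Nothing in the labels says whether the libraries of a group came from separate mice, so the p-values measure the spread between these libraries only.

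Cells copy their DNA once per division. The helicase made of the MCM proteins is loaded onto origins in G1, switched on by firing factors when S phase begins, and followed by polymerases, the sliding clamp and the enzymes that finish the lagging strand. The transcription factors of the E2F family, released from pocket proteins by cyclin-dependent kinases, drive most of these genes at the G1/S boundary, so that their transcripts mark cells that enter the cycle. Homologous recombination and the Fanconi pathway repair breaks and crosslinks at or behind the fork, and their genes are transcribed largely in the same window of the cycle. In the adult lung most cells rest outside the cycle.

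RefSeq promoter windows of build GRCm38.p6, from 250 bases before to 50 bases after each annotated start, were held for 39 of the 46 members. Fancd2, Exo1, Ccne2, Pole, Gins1, Mcm4 and Gins2 were not matched. The windows were searched on both strands for the E2F letters TTTCCCGC, TTTCGCGC, TTTGCCGC and TTTGGCGC, which may overlap each other, and for the letters TTTGAA, the core of the cell cycle homology region (CHR) found at genes of late cycle. E2F letters stood in the windows of 14 of the 39 members (35.9%), against 704 of 27025 genes with a window (2.6%). E2F control was among the grounds for choosing the members, so this difference is partly set by the choice. The 27025 genes were not limited to those expressed in lung. On the pathway lists described below, the share ran from 4.17% (mitotic genes) to 35.7% (other E2F and pocket protein genes). It was 28.9% for the other replication fork and origin genes. The CHR letters stood at 5 of the 39 members (12.8%), against 20.2% of all genes with a window and 18 of 24 matched genes of a mitotic list (75%). The stretches below lie before the start site of 3 members whose transcripts are described in each library, Cdc6, Uhrf1 and E2f7, and of Mcm5 and Mcm6, which were added because they hold more than 1 match there. Letters are given 5′ to 3′ on the gene's strand, with E2F letters or their reverse complement in capitals.
Cdc6, chr11:98907983-98908050, plus strand: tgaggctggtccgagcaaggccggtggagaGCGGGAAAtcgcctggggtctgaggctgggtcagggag
Uhrf1, chr17:56304098-56304165, plus strand, before the downstream of its 2 annotated starts: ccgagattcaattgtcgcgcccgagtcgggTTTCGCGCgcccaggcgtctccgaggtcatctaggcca
E2f7, chr10:110745211-110745278, plus strand: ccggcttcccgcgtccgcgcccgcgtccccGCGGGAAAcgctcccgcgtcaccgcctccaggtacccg
Mcm5, chr8:75109326-75109397, plus strand: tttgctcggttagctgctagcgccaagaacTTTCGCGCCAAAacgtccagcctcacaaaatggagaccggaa
Mcm6, chr1:128359715-128359845, minus strand: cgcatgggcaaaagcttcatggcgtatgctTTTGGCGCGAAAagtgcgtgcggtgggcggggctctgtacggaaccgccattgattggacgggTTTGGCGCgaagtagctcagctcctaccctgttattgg
In Mcm5 the capitals hold 2 overlapping matches on opposite strands, and in Mcm6 they hold such a pair and a further match nearer the start. Among members with a window, E2F letters stood at 3 of the 16 that passed the call described next in at least 1 comparison of irradiated and control lung, and at 11 of the 23 that passed it in none.

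Total counts per library ran from 46764569 to 66797879, and the lowest count of any member in any library was 21, for Ccne1. Levels are given as CPM, the count divided by the library's total after TMM scaling and brought to a common depth. Among the irradiated libraries at 2 weeks 2 stood apart for these genes. The library numbered 3129 was the highest of its group (65 Gy at 2 weeks) for 44 of the 46 members, and the library numbered 3134 the highest of its group (75 Gy at 2 weeks) for 38. Both are given throughout, and the counts of called genes are also given without them. At 6 weeks library 3138 was the highest of its group of 2 (65 Gy) for 37 members, and library 3142 the highest of its group (75 Gy) for 31. The 6-week calls without either of these are given further below.

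The first question was whether these transcripts changed after irradiation. By the adjusted p described next most of them rose at 2 weeks at each dose, and fewer passed at 6 weeks. The call asked for an adjusted p of 0.05 or less (edgeR's quasi-likelihood test, Benjamini-Hochberg adjusted over the 22052 genes) and a log2 fold change of 1 or more in size. At 2 weeks after 75 Gy, 18 of the 46 members were called higher and 0 lower, where 5.67% of all genes tested were called higher and 2.07% lower. With the adjusted p alone 35 rose (11.8% of all genes), and in 36 all 3 irradiated libraries lay above all 3 controls (15.5% of all genes). The median log2 fold change of the members was 0.88, against 0.00 over all genes tested. After 65 Gy at 2 weeks, 17 members were called higher and 0 lower (3.47% and 0.88% of all genes), 31 rose by the adjusted p alone (6.7%), and 33 did not overlap the controls (15.9%), with a median of 0.75 against -0.01. The 2 comparisons share their 3 control libraries. Of the called members, 16 were called at both doses, and over the 4 comparisons with controls 5 members were called in all, 25 in none. Such overlaps were not counted over all genes, so these counts describe the members only.

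At 6 weeks the numbers were smaller. After 75 Gy 9 members were called higher and 0 lower, where 7.28% of all genes were called higher and 3.13% lower, and the adjusted p alone was passed by 23 that rose (18% of all genes) and 2 that fell (18%). After 65 Gy, with its 2 libraries, 6 were called higher and 0 lower (4.34% and 0.943% of all genes), and 14 rose by the adjusted p alone (7.66%). The medians were 0.47 and 0.45, against 0.04 and 0.01 over all genes. Libraries of 32 members after 75 Gy and 31 after 65 Gy lay above all controls, beside 29.4% and 28.2% of all genes, and those of 3 and 2 members lay below, beside 27.7% and 28.1%. Mcm4, Mcm6, Pold1, Rpa2 and Fanca passed the adjusted p in none of the 4 comparisons with controls. Without the libraries 3129 and 3134 the counts of called members were 14 and 13 at 2 weeks and 10 and 7 at 6 weeks, in the order 75 Gy and 65 Gy. Neither library belongs to a group compared at 6 weeks, so the 6-week counts without them do not show how stable those calls were.

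**Figure D1:**
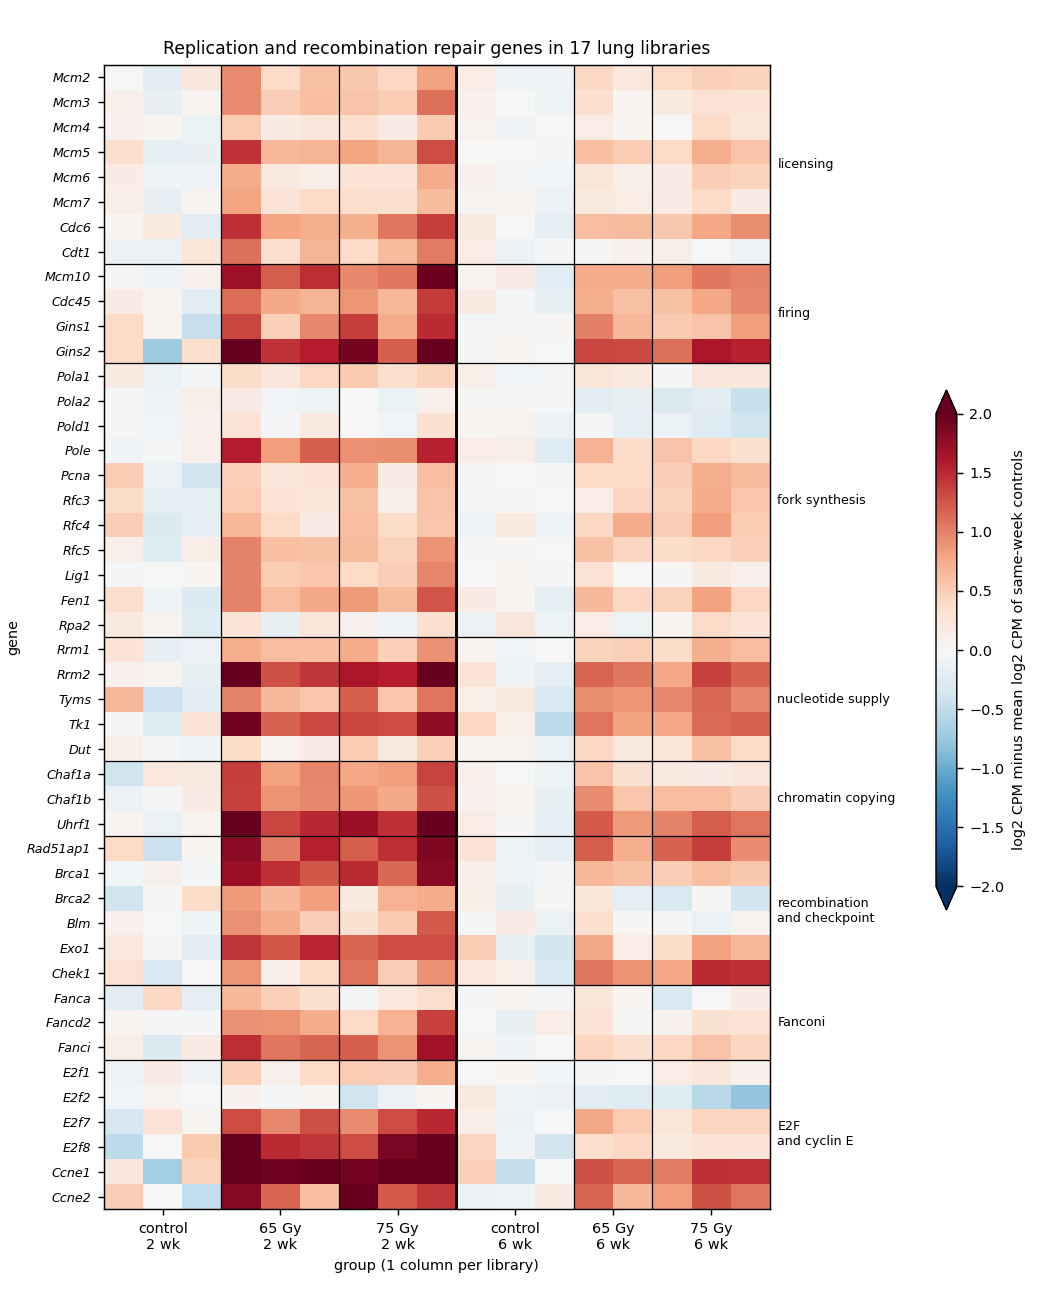
Level of the 46 members in each of the 17 libraries, as log2 CPM minus the mean log2 CPM of the controls of the same week, with a prior of 0.1 CPM added. Columns are libraries by group, rows are genes by role, and red is higher than the controls; the 6 irradiated columns at 2 weeks are darker than the 5 at 6 weeks, and Pola2, Pold1, Rpa2 and E2f2 stay pale or turn blue.

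The 8 licensing genes load the MCM helicase at origins. At 2 weeks 6 of the 8 rose by the adjusted p at each dose, and Cdc6, which brings the helicase to the origin, was called at both. Cdc6 measured 2.25, 2.53 and 1.87 CPM in the 2-week controls, 6.23, 3.88 and 3.69 CPM after 65 Gy and 3.68, 4.65 and 5.89 CPM after 75 Gy. At 6 weeks it measured 2.55, 2.23 and 1.99 CPM in controls, 3.48 and 3.55 CPM after 65 Gy and 3.31, 3.89 and 4.36 CPM after 75 Gy. Irradiated and control libraries did not overlap at either time. Fold changes are given throughout for 75 Gy first and 65 Gy second, with their SE. The log2 fold changes at 2 weeks were 1.10 ± 0.22 (SE) after 75 Gy (adjusted p = 0.0029) and 1.05 ± 0.22 after 65 Gy (adjusted p = 0.0078), which lie just above the fold limit. The call was lost at a log2 fold change of 0.91 without library 3134, of 0.77 without 3129, and of 0.99 and 0.95 without the control 3128. At 6 weeks they were 0.77 ± 0.22 (adjusted p = 0.014) and 0.64 ± 0.24 (adjusted p = 0.094).

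Mcm3, a subunit of the helicase ring, had the lowest p of this role but stayed under the fold limit. Its levels at 2 weeks were 22, 18.5 and 21.3 CPM in controls, 39.4, 29 and 31.1 CPM after 65 Gy and 30.5, 29.3 and 44 CPM after 75 Gy, with no overlap. The 6-week controls held 23.3, 22.1 and 20.5 CPM, the 65 Gy libraries 27.6 and 22.6 CPM and the 75 Gy libraries 24.8, 27 and 26.2 CPM, so 1 library of the 65 Gy group fell inside the control range and the 75 Gy libraries lay above it. The log2 fold change was 0.75 ± 0.15 after 75 Gy (adjusted p = 0.0028) and 0.69 ± 0.15 after 65 Gy (adjusted p = 0.0097) at 2 weeks, and 0.24 ± 0.15 (adjusted p = 0.23) and 0.19 ± 0.17 (adjusted p = 0.49) at 6 weeks. Among the other ring subunits the 2-week values after 75 Gy ran from 0.35 for Mcm4 to 0.94 for Mcm5, and neither Mcm4 (adjusted p = 0.051) nor Mcm6 (adjusted p = 0.07) passed. Mcm6, whose promoter holds 3 sets of E2F letters, had 1 of the smaller changes of its ring.

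The 4 firing genes, which switch the loaded helicase on, were all called higher after 75 Gy at 2 weeks, and their median log2 fold change of 1.35 was above that of the licensing genes (0.65). Gins2, a subunit of the GINS complex on the active helicase (chr8:120581266-120589075), was called in all 4 comparisons. Gins2 measured 1.87, 0.814 and 1.77 CPM in the 2-week controls, 5.94, 3.98 and 4.33 CPM after 65 Gy and 5.53, 3.34 and 5.92 CPM after 75 Gy. At 6 weeks controls measured 1.52, 1.62 and 1.55 CPM, the 65 Gy libraries 4.11 and 4.04 CPM and the 75 Gy libraries 3.46, 5.09 and 4.8 CPM. Every irradiated library lay above every control. The log2 fold changes were 1.73 ± 0.29 (75 Gy) and 1.67 ± 0.29 (65 Gy) at 2 weeks and 1.51 ± 0.28 and 1.38 ± 0.31 at 6 weeks, with adjusted p = 0.00078, 0.0018, 0.001 and 0.0088.

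Mcm10, which binds the helicase as it starts, was called at 2 weeks only, though it rose at 6 weeks after 75 Gy. Its 2-week levels were 1.85, 1.69 and 1.93 CPM in controls, 6.12, 4.34 and 5.22 CPM after 65 Gy and 3.64, 3.9 and 7.33 CPM after 75 Gy. Its 6-week levels were 1.75, 1.91 and 1.43 CPM in controls, 2.9 and 2.9 CPM after 65 Gy and 3.1, 3.63 and 3.45 CPM after 75 Gy, again without overlap. The log2 fold changes were 1.44 ± 0.24 (adjusted p = 0.00069) and 1.52 ± 0.24 (adjusted p = 0.00084) at 2 weeks, and 0.998 ± 0.23 (adjusted p = 0.0044) and 0.77 ± 0.26 (adjusted p = 0.057) at 6 weeks. The 6-week value after 75 Gy lies just under the fold limit. Cdc45, a part of the active helicase, and Gins1 had 2-week values of 1.03 and 1.26 after 75 Gy, both called, and 0.88 and 0.98 after 65 Gy, which passed the adjusted p and stayed under the fold limit. Cdc45 fell under the limit without library 3134 (0.79) or control 3128 (0.92).

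The 11 genes of synthesis at the fork divided among themselves. At 2 weeks after 75 Gy 5 of the 11 rose by the adjusted p and only Pole, the catalytic subunit of the leading strand polymerase, was called. Pole measured 3.98, 4.09 and 4.46 CPM in the 2-week controls, 12.6, 7.55 and 9.7 CPM after 65 Gy and 7.93, 8.01 and 12.4 CPM after 75 Gy. At 6 weeks the levels were 5.74, 5.58 and 4.29 CPM in controls, 8.42 and 6.67 CPM after 65 Gy and 7.72, 6.88 and 6.37 CPM after 75 Gy. Irradiated libraries were above all controls at both times, and less far at 6 weeks. The log2 fold changes were 1.17 ± 0.21 (adjusted p = 0.0011) and 1.25 ± 0.21 (adjusted p = 0.0014) at 2 weeks, and 0.43 ± 0.20 (adjusted p = 0.12) and 0.54 ± 0.23 (adjusted p = 0.12) at 6 weeks. Without library 3134 the value after 75 Gy at 2 weeks was 0.93, under the fold limit.

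Rfc5, a subunit of the loader that places the clamp, changed less but passed the adjusted p in all 4 comparisons. It stood at 7.41, 5.87 and 7.65 CPM in the 2-week controls, 13.8, 10.6 and 10.4 CPM after 65 Gy and 10.8, 9.57 and 12.9 CPM after 75 Gy. In the later set it stood at 7.25, 7.49 and 7.45 CPM in controls, 11.2 and 10.03 CPM after 65 Gy and 9.59, 9.9 and 10.3 CPM after 75 Gy, with no overlap at either time. Its log2 fold changes were 0.67 ± 0.14 and 0.74 ± 0.14 at 2 weeks and 0.43 ± 0.14 and 0.52 ± 0.15 at 6 weeks (adjusted p = 0.0035, 0.0038, 0.027 and 0.036). Pcna, the clamp itself, rose at 6 weeks after 75 Gy (0.62 ± 0.18, adjusted p = 0.016) but did not pass at 2 weeks (0.48, adjusted p = 0.073). Its 2-week controls measured 83.9, 53.8 and 45.4 CPM, and the first of these, library 3126, lay within the range of the irradiated libraries (66.2 to 97.8 CPM). Fen1 and Lig1, which trim and seal lagging strand fragments, rose at 2 weeks after 75 Gy by 0.92 and 0.64, and at 6 weeks only Fen1 passed, after 75 Gy (0.57).

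Rfc3 and Rfc4, also subunits of the loader, passed after 75 Gy at 6 weeks (0.59 and 0.63) and not at 2 weeks (0.42 and 0.48, adjusted p = 0.079 and 0.11). Pola1, the catalytic subunit of the primase polymerase, rose after 75 Gy at 2 weeks (0.43 ± 0.11, adjusted p = 0.011) and did not pass in the other 3 comparisons with controls. Pola2, Pold1 and Rpa2 rose in none of the 4. Pola2, the accessory subunit of the primase polymerase, measured 18.7, 17.7 and 20.7 CPM in the 2-week controls, 21.2, 18.2 and 17.9 CPM after 65 Gy and 18.9, 17.3 and 20.5 CPM after 75 Gy. At 6 weeks it measured 20.5, 20.6 and 19.7 CPM in controls, 17.3 and 18.2 CPM after 65 Gy and 16.6, 17.3 and 14.8 CPM after 75 Gy. The groups overlapped at 2 weeks, and at 6 weeks every irradiated library lay below every control, with a fall after 75 Gy (-0.32 ± 0.10, adjusted p = 0.02). This fall no longer passed without control 3135 or 3136 (adjusted p = 0.058 and 0.06) or library 3143 (-0.24, adjusted p = 0.12). Pold1, the lagging strand polymerase, had values of 0.09 after 75 Gy at 2 weeks (adjusted p = 0.62) and -0.26 at 6 weeks (adjusted p = 0.087). Rpa2, which coats single-stranded DNA, had 0.11 and 0.23 (adjusted p = 0.66 and 0.27).

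**Figure D2:**
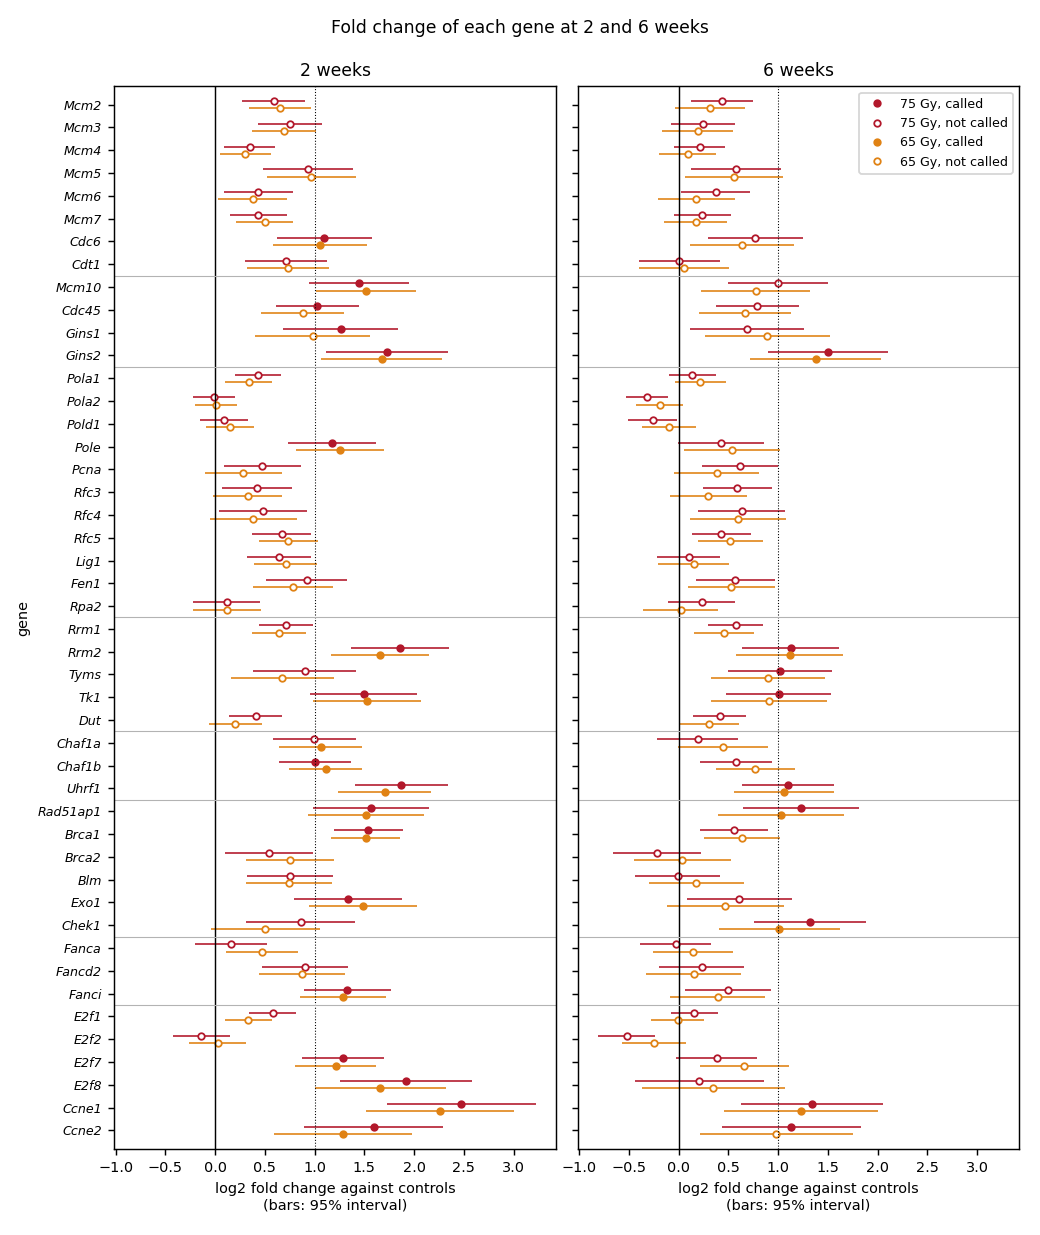
Log2 fold change of each member against the controls of the same week, at 2 weeks (left) and 6 weeks (right), after 75 Gy (red) and 65 Gy (orange), with 95% intervals; filled points were called and the dotted line is the fold limit of 1. At 2 weeks 18 and 17 points are filled, at 6 weeks 9 and 6.

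All 5 genes of nucleotide supply rose by the adjusted p after 75 Gy at both times, and Rrm2 led them. Rrm2 (chr12:24708254-24714146) is the subunit of ribonucleotide reductase that is made in S phase and limits its activity. It measured 5.46, 5.35 and 4.65 CPM in the 2-week controls, 22.2, 12.6 and 14 CPM after 65 Gy and 16.1, 15.4 and 24.6 CPM after 75 Gy. At 6 weeks the controls held 5.43, 4.33 and 3.94 CPM, the 65 Gy libraries 10.3 and 9.49 CPM and the 75 Gy libraries 7.84, 11.8 and 10.3 CPM. All irradiated libraries were above all controls, and those at 2 weeks were above those at 6 weeks. Its log2 fold changes were 1.86 ± 0.23 (adjusted p = 9.4e-05) and 1.66 ± 0.23 (adjusted p = 0.00037) at 2 weeks, and 1.13 ± 0.23 (adjusted p = 0.0018) and 1.12 ± 0.25 (adjusted p = 0.0092) at 6 weeks. Rrm1, its partner subunit, rose by less, 0.71, 0.64, 0.57 and 0.46 in the same order, passing the adjusted p each time.

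Tk1, the thymidine kinase of the salvage route, was called in 3 of the 4 comparisons. Its 2-week levels were 3.19, 2.7 and 3.89 CPM in controls, 12.5, 7.45 and 8.23 CPM after 65 Gy and 8.25, 8.1 and 11.2 CPM after 75 Gy. Its 6-week levels were 4.86, 3.9 and 2.5 CPM in controls, 7.73 and 6.38 CPM after 65 Gy and 6.23, 8.05 and 8.38 CPM after 75 Gy. The groups did not overlap. Against controls it changed on the log2 scale by 1.49 ± 0.25 and 1.53 ± 0.25 at 2 weeks and 1.01 ± 0.25 and 0.91 ± 0.27 at 6 weeks (adjusted p = 0.00086, 0.0014, 0.006 and 0.037). The 6-week call after 75 Gy fell under the limit without control 3137 (0.78), library 3142 (0.96) or library 3143 (0.94). Tyms, which makes thymidylate, was called at 6 weeks after 75 Gy (1.02 ± 0.25, adjusted p = 0.0051) and not at 2 weeks (0.90, adjusted p = 0.015), where control 3126 (10.7 CPM) again lay inside the irradiated range. The Tyms call was lost without control 3137 (0.88) or library 3142 (0.97). Dut, which removes dUTP, rose after 75 Gy by 0.41 at 2 weeks and 0.41 at 6 weeks.

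The 3 genes that rebuild chromatin behind the fork rose together at 2 weeks. Uhrf1 (chr17:56303337-56323486), which reads hemimethylated DNA and brings the maintenance methyltransferase to it, was called in all 4 comparisons. It measured 6.13, 5.35 and 6.2 CPM in the 2-week controls, 25.7, 14.9 and 17 CPM after 65 Gy and 19.4, 16.3 and 29 CPM after 75 Gy. At 6 weeks it measured 6.6, 6.1 and 5.31 CPM in controls, 14.2 and 10.9 CPM after 65 Gy and 11.9, 14 and 12.7 CPM after 75 Gy. The lowest irradiated library at either time was well above the highest control. On the log2 scale the changes were 1.87 ± 0.22 (adjusted p = 5.5e-05) and 1.70 ± 0.22 (adjusted p = 0.00022) at 2 weeks, and 1.10 ± 0.22 (adjusted p = 0.0014) and 1.06 ± 0.24 (adjusted p = 0.0087) at 6 weeks.

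Chaf1a and Chaf1b are subunits of the factor that deposits histones on new DNA. Chaf1b stood at 3.27, 3.45 and 3.98 CPM in the 2-week controls, 9.38, 6.71 and 7.03 CPM after 65 Gy and 6.6, 6.1 and 8.74 CPM after 75 Gy. At 6 weeks it stood at 4.52, 4.42 and 3.84 CPM in controls, 8.28 and 6.26 CPM after 65 Gy and 6.58, 6.54 and 5.99 CPM after 75 Gy, with no overlap at either time. Its log2 fold changes were 1.001 ± 0.17 and 1.11 ± 0.17 at 2 weeks, both called, and 0.58 ± 0.17 and 0.77 ± 0.19 at 6 weeks (adjusted p = 0.00092, 0.00082, 0.015 and 0.013). The 75 Gy value at 2 weeks lies on the fold limit and fell under it without control 3126 (0.95), control 3127 (0.98) or library 3134 (0.83), as did the 65 Gy value without library 3129 (0.95). Chaf1a was called after 65 Gy at 2 weeks (1.06), missed the fold limit by a narrow margin after 75 Gy (0.997), and at 6 weeks had 0.19 and 0.45 (adjusted p = 0.47 and 0.17). Without control 3126 or library 3129 the Chaf1a call was lost (0.89 and 0.87).

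**Figure D3:**
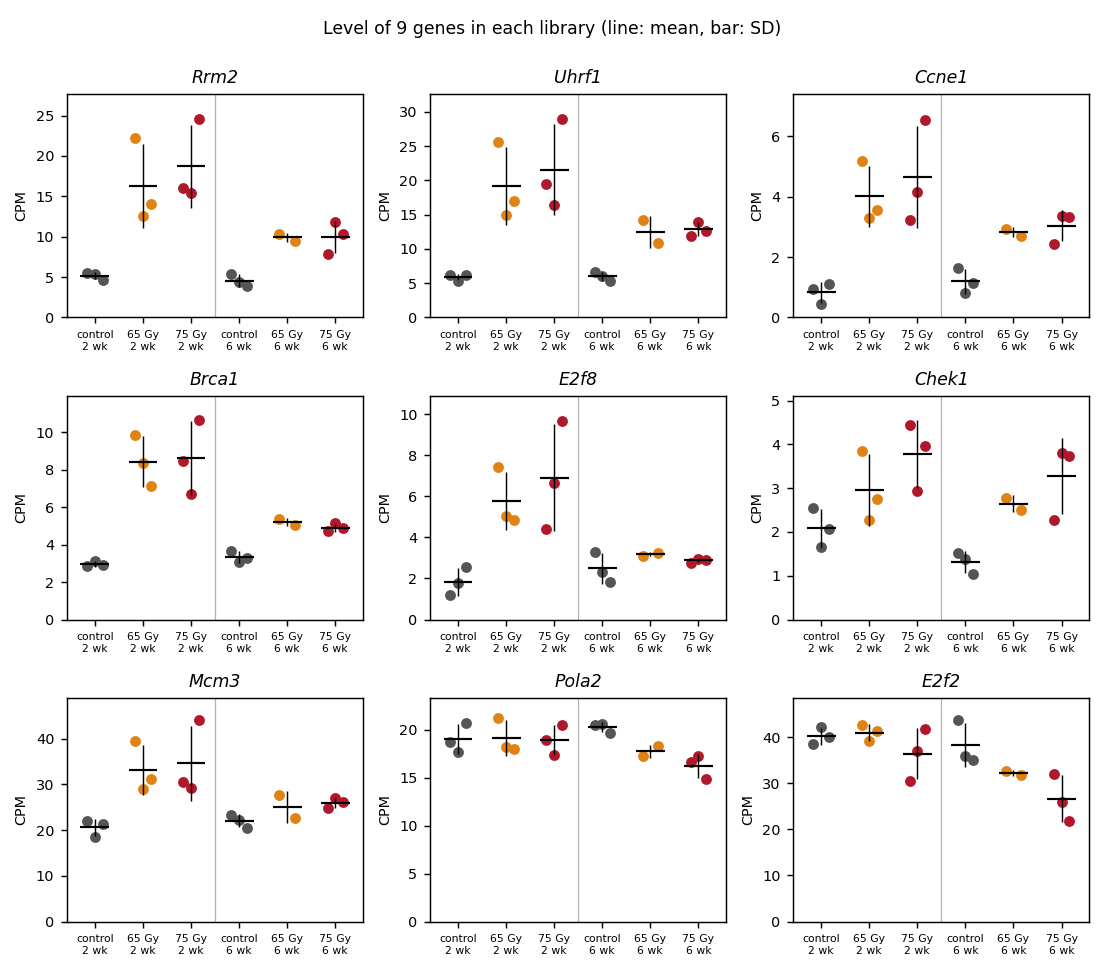
Level in CPM of 9 members in every library, by group (grey controls, orange 65 Gy, red 75 Gy), with the group mean as a line and the SD as a bar. Rrm2, Uhrf1, Ccne1, Brca1 and E2f8 are highest after irradiation at 2 weeks. At 6 weeks every irradiated library is above the controls of that week for Chek1 and below them for Pola2 and E2f2.

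Of the 6 genes of recombination and the checkpoint, 5 rose by the adjusted p at each dose at 2 weeks and 3 were called. Brca1 (chr11:101488761-101551955), which starts homologous recombination at breaks, had the lowest p of all members. Brca1 measured 2.84, 3.13 and 2.9 CPM in the 2-week controls, 9.86, 8.34 and 7.1 CPM after 65 Gy and 8.46, 6.69 and 10.7 CPM after 75 Gy. At 6 weeks the controls measured 3.66, 3.08 and 3.26 CPM, the 65 Gy libraries 5.34 and 5.05 CPM and the 75 Gy libraries 4.71, 5.13 and 4.89 CPM. The 2-week libraries were far above their controls and the 6-week libraries nearer to theirs, without overlap. Relative to controls the log2 values were 1.54 ± 0.16 (adjusted p = 2.7e-05) and 1.51 ± 0.16 (adjusted p = 5.5e-05) at 2 weeks, and 0.56 ± 0.16 (adjusted p = 0.015) and 0.64 ± 0.18 (adjusted p = 0.027) at 6 weeks.

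Rad51ap1, an accessory factor of homologous recombination (chr6:126923415-126939621), was called in all 4 comparisons. It measured 1.72, 0.921 and 1.32 CPM in the 2-week controls, 4.68, 2.71 and 3.97 CPM after 65 Gy and 3.1, 3.75 and 4.92 CPM after 75 Gy. At 6 weeks it measured 1.35, 1.02 and 0.96 CPM in controls, 2.65 and 1.88 CPM after 65 Gy and 2.61, 3.01 and 2.21 CPM after 75 Gy, again without overlap. Log2 fold changes of this gene were 1.57 ± 0.27 and 1.52 ± 0.27 at 2 weeks and 1.23 ± 0.27 and 1.03 ± 0.30 at 6 weeks (adjusted p = 0.001, 0.0025, 0.0031 and 0.033).

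Exo1, a nuclease that resects broken ends, was called at 2 weeks at both doses. Its levels were 0.974, 0.835 and 0.686 CPM in the 2-week controls, 2.39, 2.08 and 2.55 CPM after 65 Gy and 1.96, 2.17 and 2.18 CPM after 75 Gy. The 6-week levels were 1.69, 1.03 and 0.873 CPM in controls, 2.03 and 1.3 CPM after 65 Gy and 1.53, 2.09 and 1.88 CPM after 75 Gy, with control 3135 inside the irradiated range. Its log2 fold changes were 1.34 ± 0.26 (adjusted p = 0.0019) and 1.49 ± 0.26 (adjusted p = 0.0018) at 2 weeks, and 0.61 ± 0.25 (adjusted p = 0.068) and 0.47 ± 0.27 (adjusted p = 0.27) at 6 weeks. Brca2, a mediator of homologous recombination, and Blm, a helicase that dissolves recombination intermediates, had 2-week values of 0.54 and 0.76 after 75 Gy (adjusted p = 0.073 and 0.015) and 6-week values of -0.22 and -0.01.

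Chek1, the checkpoint kinase that restrains S phase when forks stall, had its calls at 6 weeks. It measured 2.54, 1.65 and 2.06 CPM in the 2-week controls, 3.86, 2.27 and 2.74 CPM after 65 Gy and 4.45, 2.94 and 3.96 CPM after 75 Gy. The 6-week libraries held 1.51, 1.39 and 1.03 CPM in controls, 2.79 and 2.51 CPM after 65 Gy and 2.28, 3.8 and 3.74 CPM after 75 Gy. The 65 Gy libraries overlapped the controls at 2 weeks, and no irradiated library did at 6 weeks. Against controls it changed on the log2 scale by 0.86 ± 0.26 (adjusted p = 0.026) and 0.50 ± 0.26 (adjusted p = 0.24) at 2 weeks, and 1.32 ± 0.26 (adjusted p = 0.0015) and 1.01 ± 0.29 (adjusted p = 0.029) at 6 weeks. The controls themselves were -0.67 on the log2 scale at 6 against 2 weeks (adjusted p = 0.24), and the 75 Gy value at 2 weeks was called without control 3126 (1.04) or library 3133 (1.01). The effect of 75 Gy was not shown to differ between the times (0.46 ± 0.37, adjusted p = 0.55).

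Fancd2 and Fanci form the pair of Fanconi proteins that is ubiquitinated at stalled forks, and Fanca belongs to the complex that does this. Fanci stood at 1.6, 1.18 and 1.64 CPM in the 2-week controls, 4.23, 3.17 and 3.4 CPM after 65 Gy and 3.47, 2.81 and 4.87 CPM after 75 Gy, with no overlap. At 6 weeks the controls held 1.78, 1.62 and 1.71 CPM and the irradiated libraries 2.32 and 2.15 CPM (65 Gy) and 2.3, 2.58 and 2.34 CPM (75 Gy), higher by a narrow margin. Its log2 fold changes were 1.33 ± 0.20 and 1.29 ± 0.20 at 2 weeks and 0.50 ± 0.20 and 0.39 ± 0.22 at 6 weeks (adjusted p = 0.00046, 0.001, 0.068 and 0.26).

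Fancd2 was higher at 2 weeks as well. It held 2.86, 2.65 and 2.67 CPM in the 2-week controls, 5.21, 5.15 and 4.61 CPM after 65 Gy and 3.64, 4.46 and 7.23 CPM after 75 Gy. In the 6-week groups it held 3.1, 2.82 and 3.49 CPM in controls, 3.78 and 3.19 CPM after 65 Gy and 3.33, 3.87 and 3.83 CPM after 75 Gy, and these overlapped. The 2-week changes of 0.90 ± 0.20 and 0.87 ± 0.20 passed the adjusted p (0.0052 and 0.013) and not the fold limit, and those at 6 weeks were 0.23 and 0.15 (adjusted p = 0.40 and 0.70). Fanca passed in none of the 4, with 0.16 and 0.47 at 2 weeks (adjusted p = 0.54 and 0.091). Its controls were higher at 6 weeks than at 2 weeks by 0.68 (adjusted p = 0.062).

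The E2F and cyclin E genes held both the widest rises and the clearest exception. Ccne1 (chr7:38097984-38107490) encodes a cyclin that drives entry into S phase. It measured 0.934, 0.45 and 1.11 CPM in the 2-week controls, 5.16, 3.3 and 3.56 CPM after 65 Gy and 3.24, 4.17 and 6.54 CPM after 75 Gy. By 6 weeks the values were 1.64, 0.802 and 1.15 CPM in controls, 2.93 and 2.7 CPM after 65 Gy and 2.44, 3.34 and 3.32 CPM after 75 Gy. Irradiated libraries were higher than controls throughout. On the log2 scale the changes were 2.48 ± 0.35 (adjusted p = 0.00025) and 2.26 ± 0.35 (adjusted p = 0.00082) at 2 weeks, the largest among the members, and 1.34 ± 0.34 (adjusted p = 0.0065) and 1.23 ± 0.36 (adjusted p = 0.036) at 6 weeks.

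Ccne2, the second cyclin E, was called at 2 weeks at both doses and at 6 weeks after 75 Gy. Its levels were 1.97, 1.37 and 0.953 CPM in the 2-week controls, 5.1, 3.2 and 2.14 CPM after 65 Gy and 5.81, 3.34 and 3.82 CPM after 75 Gy. Those at 6 weeks were 1.04, 1.07 and 1.29 CPM in controls, 2.65 and 1.83 CPM after 65 Gy and 2.1, 2.88 and 2.48 CPM after 75 Gy. The groups did not overlap, though the lowest 65 Gy library at 2 weeks was close to the highest control. Relative to controls the log2 values were 1.59 ± 0.33 and 1.28 ± 0.33 at 2 weeks and 1.13 ± 0.33 and 0.98 ± 0.36 at 6 weeks (adjusted p = 0.003, 0.021, 0.015 and 0.08). The call after 65 Gy at 2 weeks was lost without library 3129 (0.90, adjusted p = 0.12), control 3127 (1.25, adjusted p = 0.068) or control 3128 (1.06, adjusted p = 0.084). That after 75 Gy at 6 weeks was lost without control 3135 (1.07, adjusted p = 0.052) or library 3142 (1.02, adjusted p = 0.057).

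E2f7 and E2f8 are the atypical members of the family, which repress E2F targets late in S phase and are E2F targets themselves. E2f8 measured 1.18, 1.76 and 2.54 CPM in the 2-week controls, 7.42, 5.06 and 4.86 CPM after 65 Gy and 4.43, 6.66 and 9.65 CPM after 75 Gy. In the later libraries it stood at 3.31, 2.3 and 1.85 CPM in controls, 3.1 and 3.24 CPM after 65 Gy and 2.77, 2.95 and 2.9 CPM after 75 Gy. It was thus clear of the controls at 2 weeks and within their range at 6 weeks. Log2 fold changes of this gene were 1.92 ± 0.31 (adjusted p = 0.00067) and 1.66 ± 0.31 (adjusted p = 0.0033) at 2 weeks, and 0.21 ± 0.30 (adjusted p = 0.62) and 0.35 ± 0.34 (adjusted p = 0.53) at 6 weeks.

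E2f7 had a similar course. It stood at 1.66, 2.61 and 2.21 CPM in the 2-week controls, 5.42, 4.23 and 5.36 CPM after 65 Gy and 4.18, 5.39 and 6.22 CPM after 75 Gy. At 6 weeks it stood at 2.06, 1.71 and 1.85 CPM in controls, 3.23 and 2.7 CPM after 65 Gy and 2.23, 2.55 and 2.56 CPM after 75 Gy, still above the controls by a small margin. Its log2 fold changes were 1.28 ± 0.19 (adjusted p = 0.00037) and 1.21 ± 0.19 (adjusted p = 0.001) at 2 weeks, and 0.38 ± 0.19 (adjusted p = 0.13) and 0.66 ± 0.21 (adjusted p = 0.048) at 6 weeks. Its promoter and that of Uhrf1 are among those shown with E2F letters, whereas the windows of Rrm2, Brca1 and Ccne1 held none of the E2F letters searched.

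The activating factors E2f1 and E2f2 changed by less. E2f1 rose after 75 Gy at 2 weeks by 0.58 ± 0.11 (adjusted p = 0.0021) and did not pass in the other comparisons with controls (0.33, 0.16 and -0.01). E2f2 measured 38.6, 42.2 and 39.9 CPM in the 2-week controls, 42.6, 39.1 and 41.3 CPM after 65 Gy and 30.6, 37 and 41.7 CPM after 75 Gy, groups that overlapped. The 6-week libraries held 43.8, 35.9 and 35.1 CPM in controls, 32.7 and 31.8 CPM after 65 Gy and 32, 25.9 and 21.9 CPM after 75 Gy, where every irradiated library was below every control. It fell after 75 Gy by 0.52 ± 0.14 at 6 weeks (SE, adjusted p = 0.0077), and still passed with each library left out, narrowly without library 3143 (adjusted p = 0.0497). In that comparison E2f2 and Pola2 were the members that fell.

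At 6 weeks many of the calls were lost when 1 library was left out. After 65 Gy, leaving out library 3138 left 0 of the 6 calls, in a fit where the other library, 3140, was assumed to vary like the other groups. The values without 3138 were 1.38 for Gins2 (adjusted p = 0.064), 1.06 for Rrm2 (adjusted p = 0.078), 0.87 for Uhrf1 (adjusted p = 0.11), 0.77 for Rad51ap1 (adjusted p = 0.27), 0.95 for Chek1 (adjusted p = 0.17) and 1.18 for Ccne1 (adjusted p = 0.17). Leaving out library 3140 ended the calls of Gins2 (1.40), Rad51ap1 (1.27), Chek1 (1.10) and Ccne1 (1.30) by their adjusted p, from 0.051 to 0.11, while each of these 4 fold changes was above its value with both libraries. Leaving out control 3136 or 3137 ended those of Rad51ap1, Chek1 and Ccne1, and 3137 that of Uhrf1 (0.98) too. After 75 Gy the count went from 9 to 5 without library 3142, where Rrm2 stood at 0.997, Tk1 at 0.96 and Ccne2 had an adjusted p of 0.057.

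The second question was whether the dose mattered. Between 75 Gy and 65 Gy 0 of the 46 members were called at 2 weeks and 0 at 6 weeks by edgeR's quasi-likelihood test, as were 0 of all genes tested (0%). At an unadjusted p under 0.05 there was 1 member at 2 weeks, E2f1 (0.25 ± 0.11, adjusted p = 0.69), and there were 0 at 6 weeks, beside 7.12% and 6.49% of all genes. DESeq2 also called 0 members at either time. The members' log2 differences ran from -0.31 (Fanca) to 0.35 (Chek1) at 2 weeks, with a median of 0.04 that ran from -0.13 without library 3134 to 0.18 without library 3129. At 6 weeks they ran from -0.28 (E2f2) to 0.31 (Chek1), with a median of 0.06 that ran from -0.05 without library 3140 to 0.11 without library 3138. The sign of either median thus turned with single libraries. The 95% intervals reached -0.67 for Exo1 and 0.98 for Ccne2 at 2 weeks, and -0.86 for E2f8 and 0.92 for Chek1 at 6 weeks, which are the widest bounds among the members, whose SEs ran from 0.098 to 0.32 at 2 weeks and from 0.11 to 0.36 at 6 weeks.

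The third question was how the transcripts stood at 6 weeks against 2 weeks. In the controls 0 of the 46 were called, where 0.576% of all genes were, and 5 had an unadjusted p under 0.05 (15.5% of all genes). DESeq2 called 0 as well. After 75 Gy 3 of the 46 were higher at 6 than at 2 weeks and the others lower (50.2% of all genes were higher). E2f7 (-1.11 ± 0.19, adjusted p = 0.0046) and E2f8 (-1.27 ± 0.30, adjusted p = 0.018) were called lower, where 0.834% of all genes were. By the adjusted p alone 7 fell (5.77% of all genes), the others being Rrm2 (-0.91), Brca1 (-0.81), Uhrf1 (-0.75), E2f2 (-0.45) and E2f1 (-0.41). The median was -0.32, against 0.00 over all genes, and -0.15 without library 3134. Without library 3134 neither E2f7 nor E2f8 was called, with E2f7 at -0.97 (adjusted p = 0.013) and E2f8 at -0.95 (adjusted p = 0.063). E2f8 also lost its call without library 3142 (adjusted p = 0.057) or 3143 (adjusted p = 0.066).

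After 65 Gy 6 of the 46 members were higher at 6 weeks and the others lower (50.1% of all genes were higher), with a median of -0.32, but 0 were called (0.34% of all genes were called in either direction), by DESeq2 as well, and 14 had an unadjusted p under 0.05 (12.7% of all genes). Without library 3129 that median was -0.16. The lowest adjusted p was that of Brca1 (-0.70 ± 0.18, adjusted p = 0.11). Whether the effect of irradiation itself differed between the times was tested as an interaction, which sets each time against its own controls. For 75 Gy 0 members passed by edgeR (0.254% of all genes were called), 18 had an unadjusted p under 0.05 (16.1% of all genes), and DESeq2 called 1. The effect was higher at 6 weeks for 7 of the 46 and lower for the others, with a median of -0.37, where 49.7% of all genes were higher. The members nearest to passing were Brca1 (-0.98 ± 0.23, adjusted p = 0.094), E2f8 (-1.71 ± 0.43, adjusted p = 0.12) and E2f7 (-0.90 ± 0.27, adjusted p = 0.16). For 65 Gy 0 passed by either tool (0.0136% of all genes), and 10 had an unadjusted p under 0.05 (8.65% of all genes). Here the effect was higher at 6 weeks for 5 of the 46, with a median of -0.34 (-0.17 without library 3129), where 49% of all genes were higher. Most members thus had lower fold changes at 6 than at 2 weeks, and the difference passed the adjusted p for no single member by edgeR.

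Other genes of the same processes were counted on lists of their own. After 75 Gy at 2 weeks 11.8% of all genes rose and 10.5% fell by the adjusted p, and 5.67% were called higher. On the list of other replication fork and origin genes 14 of 46 rose after 75 Gy at 2 weeks by the adjusted p and 4 were called higher, with a median of 0.28. Its 3 genes with the lowest p were Asf1b, a histone chaperone (1.80), Hells, a chromatin remodeller (1.16), and Clspn, a mediator of the fork checkpoint (1.69). Among the other recombination and Fanconi genes 11 of 37 rose and 2 fell, and 9 were called higher, with a median of 0.17. Brip1, a helicase (1.34), and Eme1, a subunit of a junction nuclease (2.01), were among the 3 with the lowest p. At 6 weeks after 75 Gy 18% of all genes rose and 18% fell by the adjusted p. Of the other fork and origin genes 16 of 46 rose and 1 fell in that comparison, with a median of 0.31. Of the other recombination and Fanconi genes 7 of 37 rose and 5 fell, with a median of 0.04.

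End joining, and excision and mismatch repair, were followed on 2 further lists. None of the 12 end joining genes passed the adjusted p at 2 weeks by edgeR, at either dose, and the lowest p after 75 Gy was that of Nhej1, a scaffold of end joining (0.52, adjusted p = 0.052), followed by Rif1 (-0.25) and Dclre1c (0.28). Their summed level ran from 258 to 274 CPM in the 2-week controls and from 257 to 280 CPM in the 6 irradiated libraries of that time. Of the 28 excision and mismatch repair genes 2 rose and 5 fell after 75 Gy at 2 weeks, 0 were called, and the median was -0.03. Among the 3 lowest p values were those of Xpc, a damage sensor (-0.38), and Ercc8, of transcription-coupled repair (-0.38). The 2 that rose, named after their values were seen, were Apex1, which cuts at abasic sites (0.57), and Ung, which removes uracil (0.79). At 6 weeks 1 rose and 5 fell after 75 Gy (18% of all genes in each direction), and the summed level was 963 to 970 CPM in controls, 929 to 936 CPM after 65 Gy and 904 to 911 CPM after 75 Gy, without overlap. These irradiated sums lay inside the range of the 2-week controls, 900 to 959 CPM.

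Of the 20 other E2F and pocket protein genes, 5 rose, 1 fell and 1 was called higher after 75 Gy at 2 weeks, beside the shares of all genes given above for that comparison. The first by p was Ccnd1, the cyclin D1 gene (1.003), then Tfdp1, a partner of the E2F proteins (0.45), and Lin52, a subunit of a repressor complex of resting cells (-0.38). At 6 weeks after 75 Gy 3 of these 20 genes rose and 6 fell, where 18% of all genes rose and 18% fell. On the list of CDK inhibitors and p53 targets 12 of 20 rose, 3 fell and 9 were called higher after 75 Gy at 2 weeks, with a median of 0.86. Phlda3 (1.90 at 2 weeks and 1.55 at 6 weeks after 75 Gy), Cdkn1a, the p21 gene (2.25 and 2.41), and Eda2r (3.09 and 3.33) led it. Cdkn1a encodes an inhibitor of entry into S phase, and its rise was seen in the same comparisons as that of the S phase genes.

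All 30 mitotic genes rose after 75 Gy at 2 weeks by the adjusted p and 27 were called, with a median of 1.79, and at 6 weeks 23 rose and 13 were called, with a median of 0.93. Cenpf, a centromere protein (1.88), Kif20a, a kinesin of cytokinesis (2.15), and Top2a, the topoisomerase that untangles chromosomes (1.86), came first. Mki67, the proliferation marker, measured 24.1, 24.1 and 27.6 CPM in the 2-week controls, 95.6, 70.5 and 70.3 CPM after 65 Gy and 70.7, 76.6 and 126 CPM after 75 Gy. By 6 weeks the values were 35.0, 22.6 and 22.4 CPM in controls, 51.9 and 36.3 CPM after 65 Gy, and 34.7, 39.2 and 34.9 CPM after 75 Gy, where one control reached the irradiated range. Its log2 fold change was 1.85 ± 0.23 (adjusted p = 8.3e-05) at 2 weeks and 0.45 ± 0.22 (adjusted p = 0.13) at 6 weeks after 75 Gy.

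**Figure D4:**
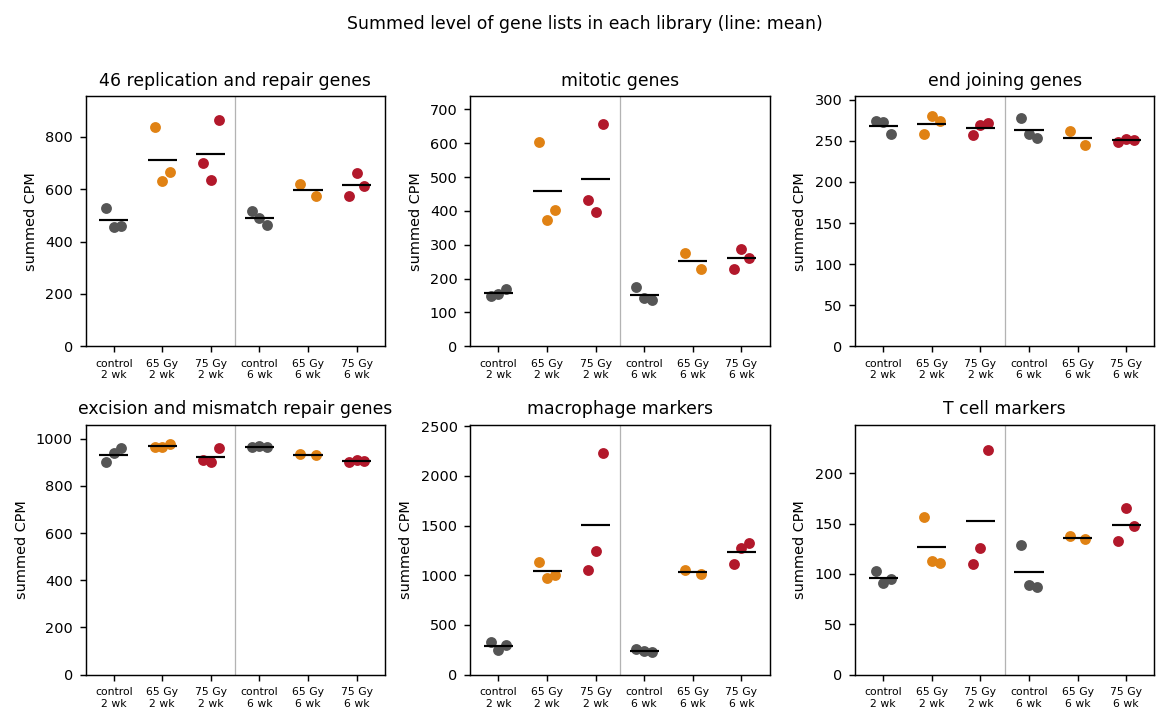
Summed CPM of 6 gene lists in every library, by group, with the mean as a line. The 46 members and the mitotic genes are highest in libraries 3129 and 3134 (836 and 864 CPM for the members), the end joining sums run from 245 to 280 CPM over all libraries, the excision sums at 6 weeks are lower after 75 Gy (904 to 911 CPM) than in controls (963 to 970 CPM), and the macrophage sum is far above the controls in every irradiated library. The excision sums of the 2-week controls run from 900 to 959 CPM.

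Marker transcripts of other cell types changed with the groups. These are bulk tissue libraries, so more cells of a type and more RNA per cell cannot be told apart. All 46 members summed to 454 to 529 CPM in the 2-week controls, 632 to 836 CPM after 65 Gy and 635 to 864 CPM after 75 Gy, and to 465 to 516, 572 to 620 and 574 to 660 CPM at 6 weeks. The 9 macrophage markers summed to 229 to 326 CPM over the 6 controls and to 973 to 2229 CPM over the 11 irradiated libraries, the top value in library 3134. By the adjusted p 8 of 9 rose after 75 Gy at 2 weeks, where 11.8% of all genes did. The 9 T cell markers summed to 86.6 to 129 CPM in controls, 156 CPM in library 3129, 223 CPM in library 3134 and 110 to 166 CPM in the other irradiated libraries. The 6 B cell markers summed to 139 to 393 CPM in controls and 67.7 to 177 CPM in irradiated libraries. By the adjusted p 4 of the 6 fell after 75 Gy at each time, where 10.5% (2 weeks) and 18% (6 weeks) of all genes did. After 65 Gy 0 fell at 2 weeks and 2 at 6 weeks, where 4.29% and 7.01% of all genes did. At 2 weeks 1 of the 6 lay above all controls at each dose (2.32 after 75 Gy and 2.53 after 65 Gy) without passing the adjusted p.

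Markers of dividing precursors were summed in the same way. The 8 thymocyte markers summed to 41.3 to 86.0 CPM, most of it Tcf7 (29.7 to 63.3 CPM), which mature T cells also express, with Rag2 at 0 in 11 and Ptcra at 0 in 13 of the 17 libraries. The matched erythroid precursor markers summed to 5.8 to 39.2 CPM, with Rhag at 0 in 6 and Hemgn at 0 in 5 libraries, and 0 of them rose in any of the 4 comparisons. The granulocyte precursor markers summed to 7.7 to 95.1 CPM, the top in control 3135, with Ms4a3 at 0 in 12 and Fcnb at 0 in 10 libraries. After 75 Gy at 6 weeks Tcf7 (-0.56), the erythroid gene Slc4a1 (-3.56) and the granulocyte genes Ngp (-4.53) and Camp (-4.88) fell by the adjusted p. The erythroid sum was 39.2 CPM in control 3135, 7.31 and 8.73 CPM in controls 3136 and 3137, and 5.80 to 6.85 CPM after 75 Gy. The granulocyte sum in these controls was 95.1, 7.70 and 44.9 CPM, and after 75 Gy it was 14.9 to 49.5 CPM, inside that range. The 10 markers of lung tissue were present in every library, at 21293 (library 3134) to 46807 CPM. Of these 5 fell after 75 Gy at each time, where 10.5% (2 weeks) and 18% (6 weeks) of all genes did. After 65 Gy 4 of these fell at each time, where 4.29% and 7.01% of all genes did. Cldn5 of endothelium was among them (-0.96 after 75 Gy and -0.78 after 65 Gy at 2 weeks). The sum of the lung tissue markers at 2 weeks was 37427 to 46807 CPM in controls and 28749 to 32862 CPM after 65 Gy, without overlap. After 75 Gy it was 21293 to 40082 CPM at that time, which overlapped the controls. At 6 weeks the controls held 35250 to 40656 CPM. The irradiated libraries overlapped them, at 35094 to 38849 CPM after 65 Gy and 33817 to 39439 CPM after 75 Gy. Which of these cells carried the replication and repair transcripts was not tested.

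The counting leaves some values open. The genomic spans of 23 members meet another annotated gene, among them Fen1 with Tmem258, Rfc4 with Eif4a2 and Fanca with Zfp276, and whether the counting used strand is not given in the sources used here. Pcna-ps2, a pseudogene that resembles Pcna, stood at 2.51 to 4.92 CPM, so part of the reads of that pair may have been assigned to either. Tyms-ps reached 0.0159 CPM.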

How the data were processed

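RNA-seq of lung tissue gave 1 table of read counts per gene for 17 libraries. Per the study's methods, reads were trimmed, aligned to mouse build GRCm38.p6 and assembled into transcripts, and the authors deposited raw counts per gene. How the counts were made from the assembly, and whether strand was used, is not given in the sources used here. The deposited table holds 45777 genes, and 0 columns were left unmapped.

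Groups were taken from the labels (3126 to 3128 control, 3129 to 3131 65 Gy and 3132 to 3134 75 Gy at 2 weeks, then 3135 to 3137, 3138 and 3140, and 3141 to 3143 at 6 weeks). Counts were filtered with filterByExpr (minimum count 10, minimum total 15), scaled by TMM and fitted over all 17 libraries with edgeR 4.0.16 (quasi-likelihood test, R 4.3.3, limma 3.58.1), with 1 coefficient per group. Adjusted p-values are Benjamini-Hochberg over 22052 genes, and intervals are 95%. Total counts per library were 46764569 to 66797879 with a median of 57608149. The lowest count of a member in a library was 21, so counting error adds to the spread between libraries for members with low counts. No pair of libraries within a group agreed within sampling noise (mean chi-square per gene of at least 14). The scripts were tested on simulated counts.

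Values are given per library for members called in at least 2 of the 4 comparisons with controls, the 2 with the lowest p in each role, and those called elsewhere; from each other list the 3 genes with the lowest p after 75 Gy at 2 weeks are named, apart from some that are not reported here. Alternatives were other scaling factors, no filter, DESeq2 1.42.0, edgeR's exact test, a fit on the compared groups alone, no fold limit, and each library left out. The members and lists were chosen with earlier results of these data known.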

Additional observations from a re-analysis of the deposited data

How the results depend on the processing

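No paired analysis was possible because the library numbers are unique, so none recurs in a second group. Under other scaling factors, no filter on low counts, DESeq2, edgeR's exact test and the fit on the compared groups alone, the called members numbered 17 to 19 (75 Gy) and 16 to 17 (65 Gy) at 2 weeks, and 9 to 10 and 6 to 7 at 6 weeks. With the adjusted p alone and no fold limit the counts were 35 and 31 at 2 weeks, 25 (75 Gy) and 14 (65 Gy) at 6 weeks, and 7 for 75 Gy at 6 against 2 weeks, since this drops the limit on size. For 75 Gy at 6 against 2 weeks, 0 were called in the fit on the compared groups alone and 1 without libraries 3129 and 3134 together, an alternative chosen after seeing the data, against 2; the cause was not tested. DESeq2 called 1 member for the effect of 75 Gy at 6 against 2 weeks, against 0.

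Leaving out each library in turn gave 14 to 23 called members after 75 Gy and 13 to 19 after 65 Gy at 2 weeks, 5 to 10 and 0 to 7 at 6 weeks, 0 to 3 for 75 Gy at 6 against 2 weeks, and 0 to 1 for the effect of 75 Gy between the times, the 1 without library 3132. The other comparisons stayed at 0. Of the named genes' values none changed sign among those called. With a library left out 1315 values kept their side of the threshold, 35 lost it and 10 gained it, and under the other settings 475 kept it, 1 lost it (Ccne2 after 65 Gy at 2 weeks, in the fit on the compared groups alone) and 4 gained it. Most of the fits that left a library out took it from a group outside the comparison. Such a library enters only through the shared filter, scaling and spread, so the 1315 overstates how stable the calls were. Precision was limited by 2 or 3 libraries a group.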

Other observations

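The other lists gave these counts after 65 Gy, by edgeR's quasi-likelihood test. At 2 weeks 12 of 46 other replication fork and origin genes, 9 of 37 other recombination and Fanconi genes, 2 of 20 other E2F and pocket protein genes, 12 of 20 CDK inhibitors and p53 targets and 29 of 30 mitotic genes rose by the adjusted p, where 6.7% of all genes did. At 6 weeks the counts were 4, 3, 1, 10 and 14 in the same order, where 7.66% of all genes rose. In that order 0, 1, 1, 2 and 0 fell at 2 weeks (4.29% of all genes). At 6 weeks 0, 0, 1, 1 and 0 fell (7.01% of all genes). Of the 28 excision and mismatch repair genes 0 passed at 2 weeks and 1 rose at 6 weeks. Among the 12 end joining genes 2 rose at 6 weeks at each dose, and 3 fell after 75 Gy at that time, where 18% of all genes rose and 18% fell.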
